A study of Mus musculus with 28 samples.

Results

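The genes described here are 10 genes of the hypertonic stress response and of organic osmolyte handling in mIMCD-3 cells, a mouse cell line with the features of the inner medullary collecting duct. They were chosen by name, as the rows whose Ensembl identifier maps to Nfat5, Slc5a3, Slc6a6, Slc6a12, Akr1b3, Hspa4l, Hspa1a, Hspa1b, Pnpla6 or Gpcpd1. All 10 were found in both expression tables, among 45706 identifiers in each. RNA sequencing had been performed on 28 libraries in 7 groups of 4. The groups were polyclonal wild-type cells (polyclonal WT), the monoclonal wild-type line WT5 and subclones 1 to 5 of WT5. WT5 was grown from a single sorted polyclonal cell, and each subclone from a single sorted WT5 cell, so that every clonal group stands for 1 clone. No group carried a targeted mutation. All cells shared DMEM:F12 medium with serum, were harvested with trypsin, and gave RNA 4 days after full confluency. The labels name no osmotic treatment, so the values below are levels in ordinary medium and not responses to salt.

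The renal medulla is the saltiest tissue of the mammalian body. Its cells keep their volume by taking up or making organic osmolytes, namely sorbitol, myo-inositol, taurine, betaine and glycerophosphocholine. NFAT5, also called TonEBP, is the transcription factor that turns on the transporters and enzymes for these osmolytes, together with heat shock proteins of the HSP70 group, when the medium becomes hypertonic. The comparisons asked how far these genes differ between a polyclonal line, a clone of it and the subclones of that clone.

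Expression was given by the authors as TPM, a transcript abundance scaled to gene length and to the same total in every library. Levels are therefore comparable between genes per length, but the number of reads behind a value is unknown. Values after ± are standard deviations over the 4 libraries of a group. For tests, log2(TPM) was centred on the median gene of each library, since log2(TPM) of the median gene differed by 0.29 between WT5 and polyclonal WT libraries. Differences below are differences of this centred value, with the standard error (SE), unless a TPM ratio is named. Each adjusted p is from limma with Benjamini-Hochberg adjustment over all genes tested. A gene passed the 2-fold rule at an adjusted p below 0.01 and a difference above 1 in size. The study's own rule is stricter, as it asks for a difference above 1 in the z-score of a library, which came to 8.56-fold between WT5 and polyclonal WT.

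Polyclonal cells had been sequenced as short single-end reads and the monoclonal line as longer paired-end reads at another time, so read type, sequencing time and cell line cannot be told apart. Since all values come from bulk RNA, fewer cells that express a gene and less RNA per cell cannot be told apart either. In the subclones, which form a table of their own, a difference from WT5 shared by all 5 subclones may equally lie between the tables, and these cannot be told apart. Of 13 collecting duct markers, 11 had a mean of at least 1 TPM in polyclonal WT and 8 in WT5 and in each subclone. Aqp2, the vasopressin-regulated water channel, was at 0 in all 28 libraries. Avpr2, the vasopressin receptor, averaged 10.6 ± 0.58 TPM in polyclonal libraries against 0.06 ± 0.07 TPM in WT5. The collecting duct list as a whole was split between the directions. Of its 11 tested markers, 5 were higher and 5 lower in WT5 at a limma adjusted p below 0.01. By the 2-fold rule 2 rose and 3 fell. The summed level of the 13 markers was larger in WT5 libraries, with 3265 to 3348 TPM, whereas polyclonal libraries reached 1834 to 2121 TPM. The keratins Krt8 and Krt18 had the highest levels of the 13 in WT5. They read 1005 and 957.2 TPM there against 359.9 and 636.9 TPM in polyclonal WT. Gata3 went the other way, like Avpr2, at 0.04 TPM in WT5 against 4.08 TPM in polyclonal WT. The sum therefore does not speak for the list as a whole. The 6 fibroblast markers summed to at most 2.14 TPM and the 4 endothelial markers to at most 0.29 TPM in any library. The 4 leukocyte markers summed to 12.2 to 13.8 TPM in polyclonal WT and 28.4 to 55.6 TPM elsewhere, most of it Csf1r, while the leukocyte gene Ptprc had group means of 0.03 to 0.14 TPM. Markers of other nephron segments summed to 1.49 to 1.76 TPM in polyclonal WT and 6.87 to 22.8 TPM elsewhere. The part of these markers in the results below was not tested.

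Of the 10 genes, 9 were above 0 in all 28 libraries and could be tested. Between WT5 and polyclonal WT, 2 of the 9 passed the 2-fold rule, Hspa1a and Slc6a6, both higher in WT5, where 23.2% of all 13723 genes tested passed it. Without the requirement on size, 5 of the 9 differed at an adjusted p below 0.01 (4 higher, 1 lower), against 65.4% of all genes. The TPM values of the 2 groups did not overlap for 7 of the 9, against 72.3% of all genes. By the study's rule limma called 0 of the 9, against 5.43% of all genes, with 7 of the 9 at an unadjusted p below 0.05 and 0 called by Welch's test. The median difference of the 9 genes was 0.16, and that of all genes -0.046. The scaling of the libraries bears on this comparison: of all genes passing the 2-fold rule, 1547 of 3190 were higher in WT5, but 2327 of 3501 on log2(TPM) as deposited and 6556 of 8908 when genes above 0 in any library were kept with a pseudocount of 0.1. Polyclonal libraries had 18681 to 19272 genes above 0 and WT5 libraries 16318 to 16536.

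**Figure D1:**
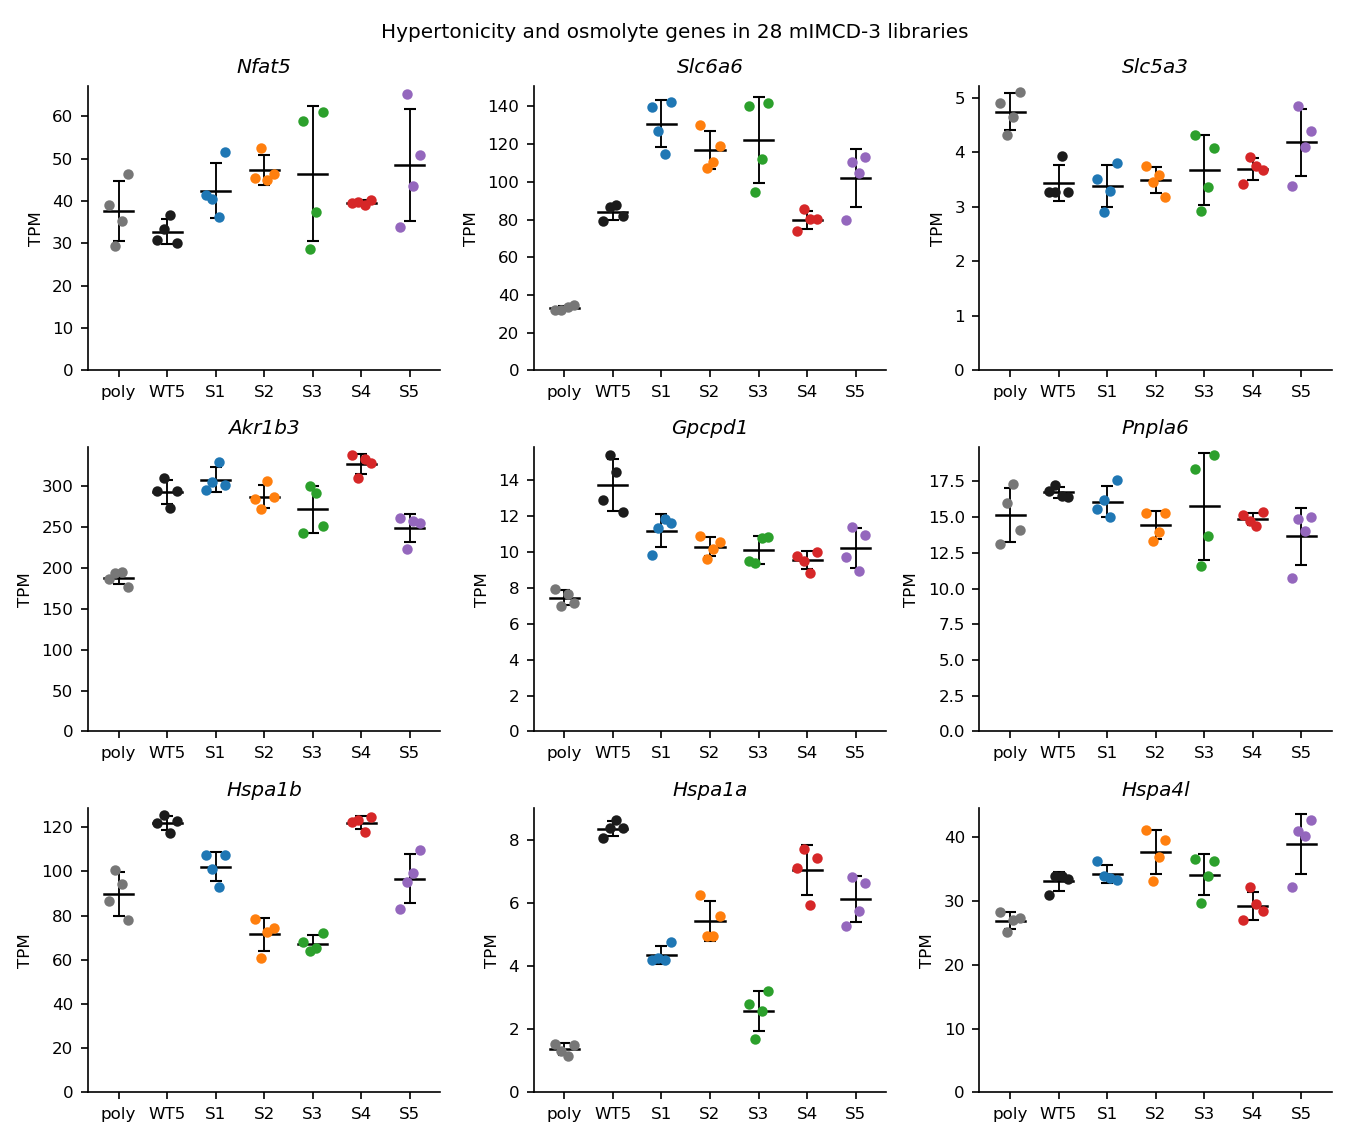
TPM (y axis, linear from 0) of the 9 genes with values above 0, in polyclonal WT (poly), WT5 and subclones 1 to 5 (S1 to S5). Each point is 1 library, the horizontal line is the mean of 4 and the vertical bar is ± 1 SD; group means of Hspa1a run from 1.37 TPM (polyclonal WT) to 8.37 TPM (WT5) and those of Slc6a6 from 33.1 TPM (polyclonal WT) to 130.9 TPM (subclone 1).

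Nfat5 (ENSMUSG00000003847, chr8:107293470-107379517 on GRCm38, plus strand) encodes the transcription factor at the head of the response. It was well expressed, with a mean over the 28 libraries of 42.1 TPM, above 68.9% of the 13272 genes detected in every library. The 4 polyclonal WT libraries read 39.0, 29.5, 35.4 and 46.5 TPM, and the 4 WT5 libraries 30.9, 33.3, 36.8 and 30.1 TPM. The groups overlap, and the WT5 values lie inside the polyclonal range. The centred difference was -0.47 (SE 0.13) with an adjusted p of 0.013 by limma, which misses the threshold, and it ran from -0.57 to -0.36 when single libraries were left out. It turned to 0.45 (limma adjusted p 0.0145) when genes above 0 in any library were kept, and was -0.72 (limma adjusted p 1.31e-04) with a trend on transcript length taken out.

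All 5 subclones had a higher mean of Nfat5 than WT5, from 39.7 ± 0.49 TPM in subclone 4 to 48.4 ± 13.2 TPM in subclone 5. The difference passed an adjusted p of 0.01 in subclone 2 (0.59, SE 0.088, limma adjusted p 0.00169) and in subclone 4 (0.37, SE 0.055, limma adjusted p 0.00104). It did not in subclone 1 (0.40, limma adjusted p 0.0124), in subclone 3 (0.54, limma adjusted p 0.0584) or in subclone 5 (0.63, limma adjusted p 0.0105). Nfat5 in subclones 3 and 5 was spread widely: subclone 3 read 58.8, 28.8, 37.4 and 61.0 TPM, and subclone 5 read 34.0, 65.4, 43.5 and 50.9 TPM. The low values are those of subclone 3 replicate 2 and subclone 5 replicate 1. In these libraries the 3306 genes with the longest transcripts were 0.28 and 0.26 lower, relative to the 3307 with the shortest, than in their groups, more than in any other library, and the Nfat5 transcript is 13443 bases long; the part of this shift in the Nfat5 values was not tested. Without both libraries the difference of Nfat5 from WT5 was 0.69 in subclone 3 (limma adjusted p 0.014) and 0.72 in subclone 5 (limma adjusted p 0.00607). Among the 5 subclones Nfat5 did not differ detectably: the range of their means was 0.26 (limma F test, adjusted p 0.576), below the median range of all genes of 0.29. As all 5 means lay above WT5, a difference between lines and a difference between tables cannot be told apart for Nfat5.

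The taurine transporter Slc6a6 (ENSMUSG00000030096, chr6:91684053-91759066, plus strand) had the highest level of the 3 osmolyte transporters among the 10 genes. Polyclonal WT libraries read 32.3, 32.0, 33.5 and 34.6 TPM. WT5 libraries read 79.1, 86.7, 87.5 and 82.1 TPM. Every WT5 library was thus above every polyclonal library, by a ratio of means of 2.53. The centred difference was 1.05 (SE 0.041, limma adjusted p 2.95e-07), just past the 2-fold rule and above 88.4% of the differences of all genes. It became 0.95, below 2-fold with an adjusted p of 2.22e-07 by limma, when a trend on transcript length was taken out of each library.

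The subclones differed among themselves in Slc6a6. Subclone 1 read 139.6, 127.1, 114.7 and 142.4 TPM, while subclone 4 read 73.8, 85.4, 80.2 and 80.2 TPM. Subclone 1 did not overlap with WT5. Subclone 4, at 73.8 to 85.4 TPM, overlapped with the lower part of the WT5 range of 79.1 to 87.5 TPM. The difference from WT5 was 0.68 (SE 0.056, limma adjusted p 1.59e-04) in subclone 1, 0.53 (SE 0.041, limma adjusted p 1.39e-04) in subclone 2 and 0.62 (SE 0.08, limma adjusted p 0.00109) in subclone 3. In subclone 5 it was 0.38 (SE 0.058, limma adjusted p 0.00219). In subclone 4 it was 0.02 with a 95% interval of -0.071 to 0.11, which lies below the estimates of the other 4 subclones. Among the subclones the range of means was 0.65 (limma F test, adjusted p 7.53e-06), and 5 of the 10 pairs of subclones differed at an adjusted p below 0.01, 4 of them with subclone 4. In descending order of level subclones 1, 3, 2 and 5 were followed by WT5, subclone 4 and polyclonal WT. Of neighbours in that order with a test, only subclone 5 and WT5 differed at an adjusted p below 0.01.

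Slc5a3 (ENSMUSG00000089774, chr16:92058322-92087473, plus strand), the sodium-coupled myo-inositol transporter SMIT1, was low, at a mean of 3.80 TPM over all libraries. It was the only 1 of the 9 genes that was lower in WT5 than in polyclonal WT at an adjusted p below 0.01. Polyclonal WT libraries read 4.90, 4.32, 4.65 and 5.11 TPM and WT5 libraries 3.27, 3.27, 3.94 and 3.28 TPM, without overlap. The centred difference was -0.76 (SE 0.075, limma adjusted p 4.43e-05), short of 2-fold. It was 0.18 (limma adjusted p 0.0661) when genes above 0 in any library were kept. In the subclones the mean ran from 3.38 to 3.69 TPM for subclones 1 to 4 and reached 4.19 ± 0.62 TPM for subclone 5, which alone differed from WT5 by 0.38 (SE 0.077, limma adjusted p 0.00666). Slc5a3 lies within the span of Mrps6, a mitochondrial ribosomal protein gene on the same strand, and 1.01% of its stretches of 50 bases recur within Mrps6 transcripts. Mrps6 stood far above Slc5a3, with group means of 121.7 to 138.7 TPM.

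Slc6a12 (ENSMUSG00000030109, chr6:121343076-121365775, plus strand), the betaine transporter BGT1, was listed at 0 in all 28 libraries. The depth of the libraries is unknown, so no limit on its level can be given. RefSeq windows exist for 5 start sites of the gene on GRCm38.p6, and the window of 250 bases before 1 of them holds a match to the tonicity-responsive element TonE, the sequence bound by NFAT5, at 75 bases before the start. A TonE match on either strand was found in 4.31% of 32851 such windows of all genes, and its core TGGAAA, which overlaps with the match here, in 18.58%. Of the 7 of the 10 genes that the promoter table holds, Slc6a12 and Pnpla6 had a TonE match in at least 1 window. Both have several windows, whereas Nfat5, Slc5a3, Hspa4l, Hspa1a and Hspa1b have 1 each and had no match. The 4.31% is a share of windows, and no share per gene was computed. Such a match is a description of letters and not evidence of binding.

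Akr1b3 (ENSMUSG00000001642, chr6:34302434-34317478, minus strand), the aldose reductase that makes sorbitol from glucose, was the most abundant of the 10 genes. Its mean of 274.6 TPM was above 96.3% of genes. Polyclonal WT libraries read 186.5, 193.8, 194.4 and 176.8 TPM and WT5 libraries 294.1, 309.6, 273.4 and 293.5 TPM, again without overlap. The ratio of means was 1.56, and the centred difference 0.35 (SE 0.057, limma adjusted p 8.02e-04). Subclone means ran from 248.8 ± 17.5 TPM (subclone 5) to 327.0 ± 12.6 TPM (subclone 4). The difference from WT5 passed an adjusted p of 0.01 in subclone 4 alone (0.25, SE 0.061, limma adjusted p 0.00971). There the TPM values overlapped with those of WT5. Over the alternatives in processing the difference ran from 0.12 to 0.29, and its adjusted p did not stay below 0.01 in all of them. The range among subclones was 0.38 (limma F test, adjusted p 0.112), and 0.47 with an adjusted p of 0.00554 by limma without subclone 3 replicate 2 and subclone 5 replicate 1. Transcript levels of the sorbitol-making enzyme thus exceeded those of Slc6a6, Slc5a3 and Slc6a12 in all groups, per length.

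Pnpla6 and Gpcpd1 act on the glycerophosphocholine pool. Pnpla6 (ENSMUSG00000004565, chr8:3515384-3544267, plus strand) encodes neuropathy target esterase, which makes glycerophosphocholine from phosphatidylcholine. It was the steadiest of the tested genes across groups, with the lowest mean in subclone 5, at 13.7 ± 1.98 TPM, and the highest in WT5, at 16.7 ± 0.39 TPM. The difference between WT5 and polyclonal WT was -0.14 (SE 0.084, limma adjusted p 0.177), with a 95% interval of -0.33 to 0.061, and the groups overlap. It was 0.15 on log2(TPM) as deposited and 0.78 (limma adjusted p 1.13e-04) when genes above 0 in any library were kept. Differences of the subclones from WT5 ran from -0.20 in subclone 5 to -0.02 in subclones 1 and 3, with limma adjusted p from 0.0117 to 0.898.

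Gpcpd1 (ENSMUSG00000027346, chr2:132529082-132587729, minus strand) encodes a phosphodiesterase that splits glycerophosphocholine. Polyclonal WT libraries read 7.92, 7.02, 7.66 and 7.18 TPM and WT5 libraries 12.9, 15.4, 14.5 and 12.2 TPM. The groups did not overlap, and the centred difference was 0.59 (SE 0.073, limma adjusted p 1.54e-04). In the subclones Gpcpd1 lay between these levels, at means of 9.55 to 11.2 TPM. All 20 subclone libraries read below all 4 WT5 libraries, the highest at 11.9 TPM in subclone 1. The difference from WT5 was -0.36 in subclone 2 (SE 0.065, limma adjusted p 0.00381) and -0.43 in subclone 4 (SE 0.076, limma adjusted p 0.00243), and from -0.34 to -0.26 in subclones 1, 3 and 5 with limma adjusted p from 0.0203 to 0.0518. Among subclones the range was 0.17 (limma F test, adjusted p 0.499). The 5 comparisons share the WT5 libraries, and as every subclone lay below them, a difference between lines and a difference between tables cannot be told apart here.

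**Figure D2:**
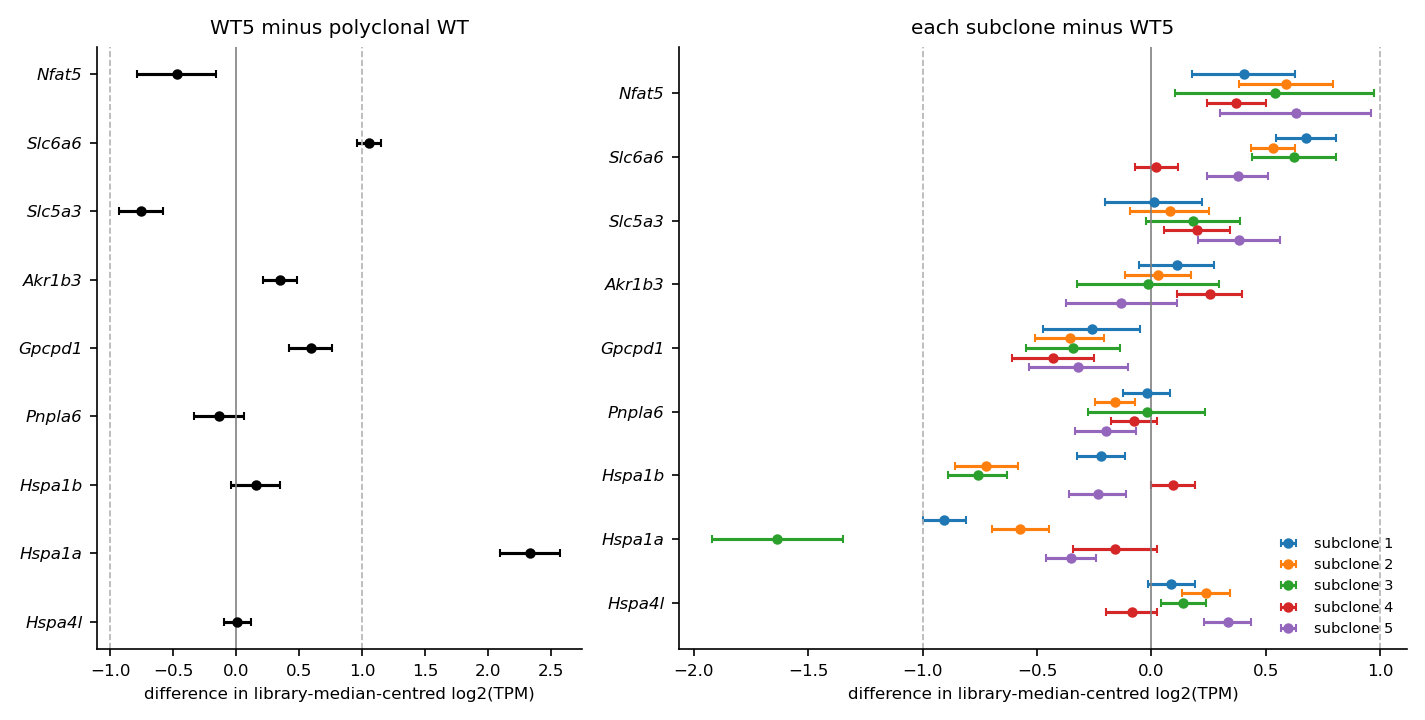
Difference in library-median-centred log2(TPM) (x axis) for the 9 tested genes (y axis), left WT5 minus polyclonal WT, right each subclone minus WT5 in its own colour. Points are limma estimates from 4 against 4 libraries, bars are 95% intervals and dashed lines mark a 2-fold difference, which is passed at an adjusted p below 0.01 by Hspa1a (2.33) and Slc6a6 (1.05) on the left and by Hspa1a in subclone 3 (-1.64) on the right.

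Hspa1a and Hspa1b encode the stress-inducible HSP70, the chaperone that refolds proteins after heat or salt stress. They are near-identical copies on chromosome 17. Hspa1a (ENSMUSG00000091971) lies at chr17:34969190-34972156 and Hspa1b (ENSMUSG00000090877) at chr17:34956436-34959238, both on the minus strand of GRCm38. Their coding sequences have 1923 and 1926 bases and differ at 8 bases and by a gap of 3 bases, with 99.58% identity outside the gap. The longest run without a difference has 638 bases. Of all stretches of 50 bases in the coding sequence, 82.44% in Hspa1a and 82.31% in Hspa1b also occur in the other gene. Over the whole of the longest transcript these shares are lower, at 58.81% in Hspa1a and 62.31% in Hspa1b. The following windows of the coding strand, from GRCm38 at chr17:34970026-34970073 for Hspa1a and chr17:34957105-34957155 for Hspa1b, are shown because they hold the gap and the differences next to it. Capitals mark the bases that differ between the genes or have no partner in the alignment.
Hspa1a: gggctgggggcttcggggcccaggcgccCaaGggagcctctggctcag
Hspa1b: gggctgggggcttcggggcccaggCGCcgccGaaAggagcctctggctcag
Single-end reads of 50 bases, the read type of the polyclonal libraries, match both genes over most other parts of the coding sequence. How far the longer paired-end reads of WT5 do so was not computed. The RSEM program divides reads that match both genes by estimate. The split between the genes is therefore uncertain, and both genes are also given as a sum, which the split does not change. Hspa1l, a testis HSP70 gene with 2.31 to 3.58 TPM in group means, holds 7.95% of the transcript stretches of Hspa1a and 6.79% of those of Hspa1b.

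The promoters are near-identical too. The following windows are the 250 bases before the RefSeq start of each gene on GRCm38.p6, at chr17:34972157-34972406 for Hspa1a and chr17:34959239-34959488 for Hspa1b, minus strand. They differ at 3 bases. Capitals mark the only match to GAANNTTC on either strand, a pair of the units of the heat shock element that HSF1 binds, at 104 bases before the start in both genes. This motif was found in 6.69% of 32851 windows of all genes and does not overlap with another motif searched.
Hspa1a: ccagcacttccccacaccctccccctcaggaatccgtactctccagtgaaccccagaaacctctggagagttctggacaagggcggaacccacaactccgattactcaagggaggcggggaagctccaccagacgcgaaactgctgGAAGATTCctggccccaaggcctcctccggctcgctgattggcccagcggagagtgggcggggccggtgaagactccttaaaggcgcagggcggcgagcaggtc
Hspa1b: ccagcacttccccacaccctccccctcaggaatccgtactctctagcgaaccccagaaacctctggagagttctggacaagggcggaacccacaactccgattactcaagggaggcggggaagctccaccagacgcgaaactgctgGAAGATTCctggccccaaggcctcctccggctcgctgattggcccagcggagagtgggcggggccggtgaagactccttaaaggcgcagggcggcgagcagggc

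Almost all HSP70 transcript was assigned to Hspa1b. Hspa1b had a mean of 95.9 TPM over the 28 libraries and Hspa1a of 5.04 TPM. The Hspa1a share of their sum was 1.53 ± 0.35% in polyclonal WT, 6.43 ± 0.30% in WT5, and from 3.67 ± 0.73% in subclone 3 to 7.08 ± 0.50% in subclone 2. The shares of polyclonal WT, 1.2 to 1.91%, lay below those of every other library, of which the lowest was 2.61% in subclone 3 replicate 2. The different read types of the polyclonal and monoclonal libraries move with this share, and their part in it was not tested. Within the subclones, which are in a table of their own, shares of 3.76 to 4.33% in subclone 1 did not overlap with 6.40 to 7.54% in subclone 2.

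Hspa1a had the largest difference between WT5 and polyclonal WT among the 9 genes. Polyclonal WT libraries read 1.53, 1.3, 1.14 and 1.52 TPM and WT5 libraries 8.06, 8.39, 8.65 and 8.38 TPM. The groups are far apart, with a ratio of means of 6.10. The centred difference was 2.33 (SE 0.10, limma adjusted p 6.00e-07), above 96.0% of the differences of all genes. Hspa1b, by contrast, read 86.6, 100.8, 94.3 and 77.9 TPM in polyclonal libraries against 121.7, 125.4, 117.5 and 122.8 TPM in WT5. These values do not overlap either, but centring took up most of the gap, and the difference was 0.16 (SE 0.083, limma adjusted p 0.123). Their sum was 91.2 ± 9.73 TPM in polyclonal libraries against 130.2 ± 3.20 TPM in WT5, a centred difference of 0.23 that did not pass an exact permutation test over libraries (two-sided, p 0.0571, adjusted p 0.0685 over 6 comparisons). The smallest p that 4 against 4 libraries allow in that test is 0.029. The large difference of Hspa1a thus was a difference in the smaller component, which held 1.53% and 6.43% of the sum, and the sum itself differed by 0.23.

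As the sum of both genes, HSP70 transcript was lower than WT5 in 4 of the 5 subclones and level with it in subclone 4. Hspa1a read 2.81, 1.71, 2.59 and 3.22 TPM in subclone 3, whereas subclone 4 libraries had 7.13, 7.71, 5.94 and 7.45 TPM. Hspa1b read 67.9, 63.8, 65.2 and 72.2 TPM in subclone 3, whereas subclone 4 libraries had 122.3, 123.3, 117.8 and 124.7 TPM. Subclone 3 lay below WT5 in every library for both genes, and subclone 4 lay on the WT5 values of Hspa1b. For Hspa1a all subclone 4 libraries lay below the WT5 range of 8.06 to 8.65 TPM (-0.16, SE 0.079, limma adjusted p 0.123). Hspa1a lay below WT5 without overlap in all 5 subclones. For the part of this shift that they share, a difference between lines and a difference between tables cannot be told apart. Of the 9 genes, Hspa1a in subclone 3 alone passed the 2-fold rule against WT5 (-1.64, SE 0.12, limma adjusted p 1.09e-04), which 3.97% of 13860 genes passed in that comparison. With Welch's test in place of limma its adjusted p was 0.012. Limma called 0 of the 9 genes by this rule in subclones 1, 2, 4 and 5, with 5, 7, 4 and 8 of them at an unadjusted p below 0.05 and 0 called by Welch's test, where 3.12%, 2.68%, 5.32% and 3.67% of all genes passed it.

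The sum of both HSP70 genes was 106.5 ± 6.88 TPM in subclone 1, 76.9 ± 8.09 TPM in subclone 2, 69.9 ± 4.30 TPM in subclone 3, 129.1 ± 3.72 TPM in subclone 4 and, for subclone 5, 102.9 ± 11.5 TPM. The sum in subclone 4 was level with the 130.2 ± 3.20 TPM of WT5. The centred difference from WT5 was -0.25, -0.71, -0.80 and -0.24 in subclones 1, 2, 3 and 5, each at the smallest p of the exact permutation test (two-sided, p 0.029, adjusted p 0.0429). In subclone 4 it was 0.08 (exact permutation test, adjusted p 0.114). Subclones 2 and 3 thus had 0.59 and 0.54 of the summed TPM of WT5.

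**Figure D3:**
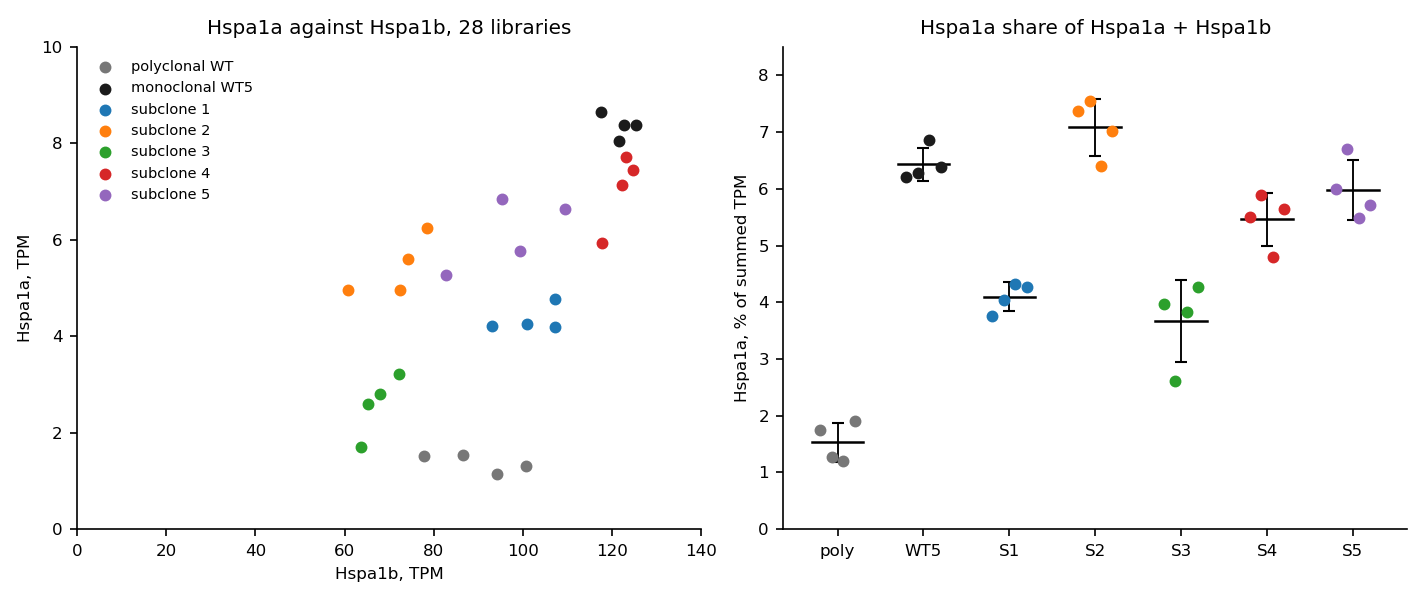
Left, Hspa1a TPM (y axis) against Hspa1b TPM (x axis), 1 point a library, in the colour of its group. Right, the Hspa1a share of their summed TPM in percent for polyclonal WT (poly), WT5 and subclones 1 to 5 (S1 to S5), with mean and ± 1 SD of 4 libraries; polyclonal WT has a share of 1.53% and WT5 of 6.43%.

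Among the 5 subclones themselves, a comparison that uses neither WT5 nor a second table, Hspa1a was the only 1 of the 9 genes with means more than 2-fold apart (range 1.47, limma F test, adjusted p 7.76e-08), against 5.46% of all 14031 genes. Without the requirement on size, 4 of the 9 genes differed at an adjusted p below 0.01, namely Hspa1a, Hspa1b, Slc6a6 and Hspa4l, against 24.3% of all genes. For Hspa1a 7 of the 10 pairs of subclones differed at an adjusted p below 0.01, of which 3 by more than 2-fold, each with subclone 3 as the lower. Subclone 3 lay below subclone 2 by 1.06, below subclone 5 by 1.28 and below subclone 4 by 1.47 (limma adjusted p 3.99e-06, 2.37e-07 and 3.23e-08). Of all genes, 1.08%, 1.22%, 2.06% and 1.66% differed by more than 2-fold between subclone 1 and subclones 2 to 5, 1.18%, 2.12% and 1.7% between subclone 2 and subclones 3 to 5, 2% and 1.72% between subclone 3 and subclones 4 and 5, and 2.72% between subclones 4 and 5. Without the requirement on size these shares were, in the same order, 4.07%, 3.69%, 12.1%, 9.54%, 4.11%, 14%, 9.27%, 12.2%, 8.85% and 19.8%. For Hspa1b 8 of the 10 pairs differed at that level, with a range of means of 0.85 (limma F test, adjusted p 6.44e-09). Subclones 4, 1 and 5, in descending order, stood above subclones 2 and 3, which differed from each other by 0.03 with a 95% interval of -0.082 to 0.15. The order of Hspa1a was another one, with subclone 2 above subclone 1, although their difference of 0.33 did not pass (limma adjusted p 0.0767).

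Hspa4l (ENSMUSG00000025757, chr3:40744495-40796103, plus strand) encodes OSP94, an HSP110 chaperone first described as induced by salt in collecting duct cells. Polyclonal WT libraries read 28.3, 25.1, 27.0 and 27.3 TPM and WT5 libraries 30.9, 34.0, 34.0 and 33.5 TPM. The TPM values do not overlap, but the ratio of means of 1.23 is close to the shift of the median gene, and the centred difference was 0.0083 (SE 0.045, limma adjusted p 0.874). With a trend on transcript length taken out it turned to -0.20 (limma adjusted p 0.00333). In the subclones Hspa4l was highest in subclone 5, at 39.0 ± 4.68 TPM, and lowest in subclone 4, at 29.3 ± 2.21 TPM. Subclones 2 (0.24, SE 0.045, limma adjusted p 0.00465) and 5 (0.33, SE 0.044, limma adjusted p 0.00114) were above WT5. The range among subclones was 0.42 (limma F test, adjusted p 3.34e-05), and 4 of the 10 pairs differed at an adjusted p below 0.01. Subclone 4 therefore had the highest Hspa1b and the lowest Hspa4l of the subclones, and these chaperones did not share an order.

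Against WT5, without the requirement on size, 3, 6, 3, 3 and 4 of the 9 genes differed at an adjusted p below 0.01 in subclones 1 to 5, beside 26.4%, 27.7%, 18.6%, 37.1% and 23.0% of all genes. TPM values without overlap were found for 4, 6, 4, 4 and 5 of the 9, beside 42.1%, 39.5%, 37.4%, 50.5% and 38.4%. The study's rule called 0 of the 9 in each subclone by limma and by Welch's test, with 6, 7, 6, 6 and 8 at an unadjusted p below 0.05, beside 0.152%, 0.144%, 0.173%, 0.202% and 0.173% of all genes. The 5 comparisons share the WT5 libraries. The median difference of the 9 genes from WT5 lay between -0.13 in subclone 5 and 0.027 in subclone 2, and that of all genes within 0.03 of 0.

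The wider pathway was described with 6 lists. Of 14 further genes known to respond to hypertonicity in the renal medulla, 11 could be tested between WT5 and polyclonal WT, and 5 rose and 1 fell by the 2-fold rule, which 23.2% of all genes passed. The median difference of this list was 0.94, and it was the only 1 of the 6 lists with a gene past the study's rule, Ccl2, a chemokine that NFAT5 can induce. Ccl2 read 12.8 ± 2.22 TPM in WT5 against 0.23 ± 0.12 TPM in polyclonal WT (5.61, SE 0.35, limma adjusted p 3.16e-06). Hspb1, a small heat shock protein, read 817.2 ± 6.93 TPM against 157.0 ± 15.3 TPM (2.10, SE 0.072, limma adjusted p 1.69e-07). The gene that fell was Atp1b1, the beta subunit of the sodium pump, from 566.3 ± 13.1 to 256.9 ± 4.32 TPM (-1.43, SE 0.032, limma adjusted p 2.19e-08), named here after its value had been seen.

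Of 14 genes of osmolyte synthesis, breakdown and transport, 9 were tested, and 3 fell and 0 rose by the 2-fold rule, with a median of -0.12, beside the same 23.2% of all genes, against which each count of this paragraph is to be read. The largest fall was in Impa1, the inositol monophosphatase that frees myo-inositol, from 179.7 ± 7 to 67.0 ± 5.74 TPM (-1.72, SE 0.057, limma adjusted p 1.38e-07). Of 15 kinases and partners reported to act on NFAT5 all were tested, and 1 rose and 1 fell, the latter being the kinase Atm, from 13.8 ± 1.14 to 4.57 ± 0.30 TPM (-1.88, SE 0.062, limma adjusted p 1.41e-07). Of 15 cell volume genes 14 were tested and 2 rose, both among the largest changes of all lists. Lrrc8c, a subunit of the volume-regulated anion channel, went from 1.82 ± 0.16 to 13.0 ± 0.98 TPM (2.55, SE 0.087, limma adjusted p 1.63e-07). Stk39, the kinase SPAK that controls the cation-chloride cotransporters, went from 0.23 ± 0.046 to 1.36 ± 0.25 TPM (2.25, SE 0.17, limma adjusted p 8.41e-06). Of the 4 NFAT family members that depend on calcineurin 2 rose, with a list median of 1.02. Of 16 heat shock genes 1 rose and 1 fell, the riser being Hspb1, which the hypertonicity list also holds. The list median was -0.21, and at an adjusted p below 0.01 without the requirement on size 8 of the 16 were lower and 1 higher, beside 65.4% of all genes in either direction.

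**Figure D4:**
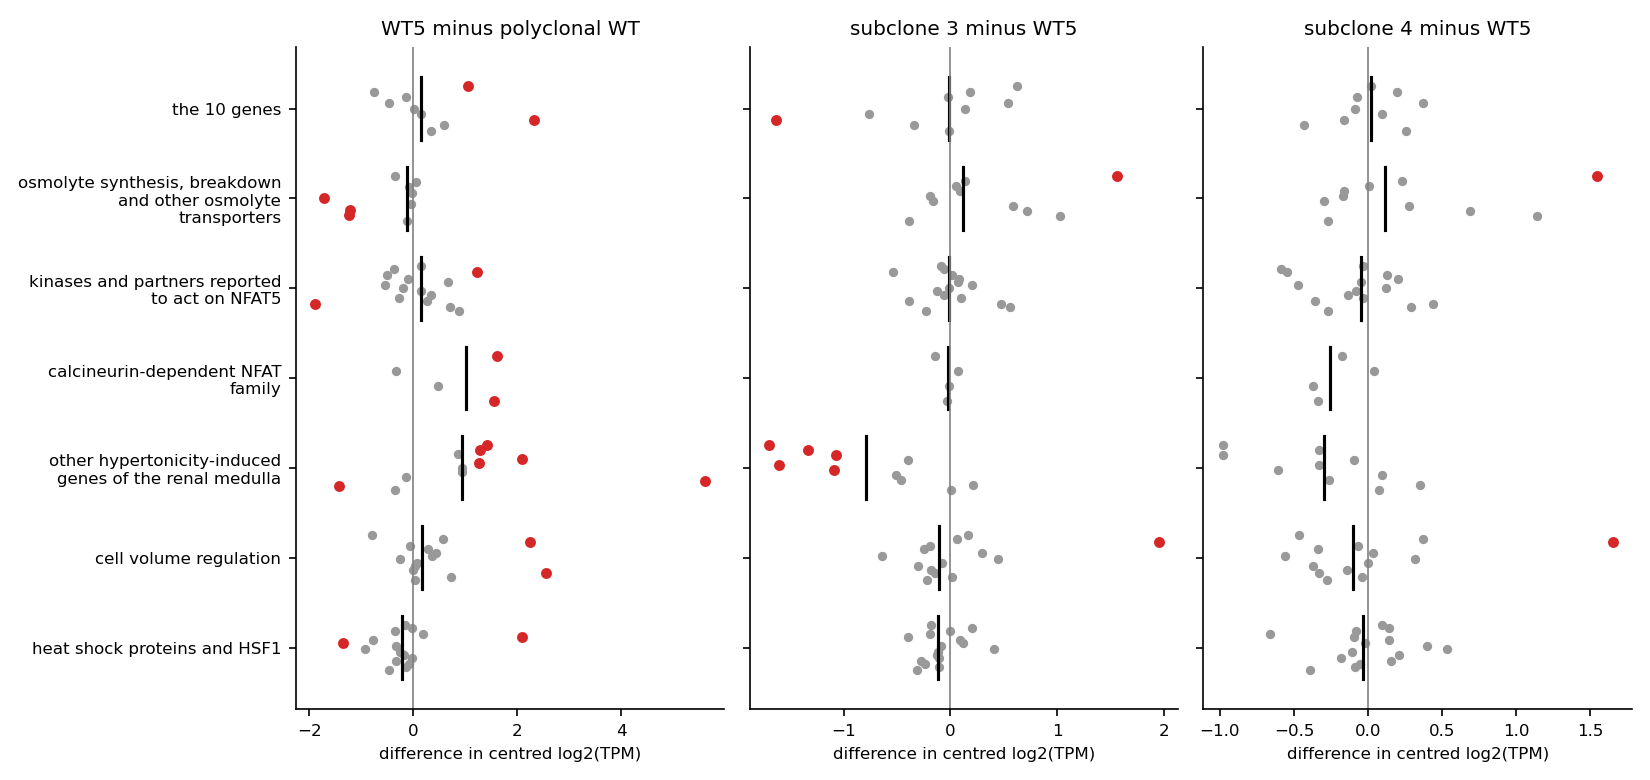
Difference in centred log2(TPM) (x axis) of every tested gene in the 10 genes and the 6 wider lists (rows), for WT5 minus polyclonal WT, subclone 3 minus WT5 and subclone 4 minus WT5. Points are genes, red where the 2-fold rule was passed, and black bars are list medians, which for the further hypertonicity-induced genes are 0.94, -0.79 and -0.30; the x axes differ in scale.

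In the subclones, as in polyclonal WT, the list of further hypertonicity-induced genes lay below WT5 by its median, and both sets of comparisons share the WT5 libraries. The median over its 10 tested genes was -0.33, -0.48, -0.79, -0.30 and -0.59 in subclones 1 to 5, where the median of all genes was at most 0.03 from 0. As the list median was below WT5 in all 5 subclones, a difference between lines and a difference between tables cannot be told apart for the shared shift. By the 2-fold rule 0, 2, 5, 0 and 2 of these genes fell and 0 rose in subclones 1 to 5, beside 3.12%, 2.68%, 3.97%, 5.32% and 3.67% of all genes. Of the 14 listed genes, those at 0 in any of the 24 libraries were not tested, Slc14a2 and Ccl2 among them. Slc14a2, a urea transporter gene, read 0.29 ± 0.11 TPM in WT5 and 4.99 ± 0.41 TPM in subclone 4. In subclones 1 to 3 its means were 0.14, 0.0025 and 0.0225 TPM, and its mean in subclone 5 is not given here. Of the 14 listed genes 12 had a mean of at least 1 TPM in subclone 4 and also in subclone 5, against 11 in WT5. A Slc14a2 level particular to subclone 4 is therefore not shown. Ccl2 read 12.8 ± 2.22 TPM in WT5 and 0.065 ± 0.049 TPM in subclone 2. Its means in subclones 1, 3 and 4 were 20.4, 18.5 and 22.9 TPM. Both were named after their values had been seen. In subclone 3 the genes with the largest falls were Sgk1, a salt-sensitive kinase that acts on sodium transport, at 18.4 ± 3.44 TPM against 63.6 ± 9.14 TPM in WT5 (-1.70, SE 0.11, limma adjusted p 6.11e-05), and Gadd45g, a growth arrest gene, at 46.0 ± 9.48 TPM against 148.1 ± 6.45 TPM (-1.61, SE 0.11, limma adjusted p 7.01e-05). S100a4, a calcium-binding protein, fell by 1.33 (SE 0.24, limma adjusted p 0.00453) and Gadd45b by 1.09 (SE 0.063, limma adjusted p 4.10e-05) in the same subclone. Subclone 3 was also the subclone with the lowest Hspa1a and Hspa1b. Among the 5 subclones 3 of the 10 genes of this list were more than 2-fold apart, beside 5.46% of all genes, namely Sgk1, S100a4 and Gadd45g, with ranges of 1.11, 1.09 and 1.38 (limma F test, adjusted p 0.0039, 0.00707 and 2.93e-06).

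Stk39 and Sord were the genes of the other lists that rose by the 2-fold rule in more than 1 subclone. Of 14 tested cell volume genes 1, 0, 1, 1 and 1 rose in subclones 1 to 5 and 0 fell. Of 10 tested genes of osmolyte synthesis, breakdown and transport 1, 0, 1, 1 and 0 rose and 0 fell. Of all genes 3.12%, 2.68%, 3.97%, 5.32% and 3.67% passed in either direction. Stk39 rose in subclone 3 to 4.83 ± 0.25 TPM (1.95, SE 0.12, limma adjusted p 5.03e-05), and also in subclones 1, 4 and 5 by 1.29, 1.65 and 2.01. In subclone 2 it was at 1.17 ± 0.16 TPM, near the WT5 level, and the range among subclones was 2.16 (limma F test, adjusted p 7.93e-11). Sord, the sorbitol dehydrogenase that turns sorbitol into fructose, rose in subclone 3 from 3.44 ± 0.39 to 9.45 ± 0.42 TPM (1.56, SE 0.11, limma adjusted p 8.00e-05), and in subclones 1 and 4 by 1.26 and 1.55. Its differences in subclones 2 and 5 were 0.86 and 0.82 (limma adjusted p 4.43e-04 and 0.00179). As Sord was above WT5 in all 5 subclones, a difference between lines and a difference between tables cannot be told apart for it. Sord was at 3.56 ± 0.34 TPM in polyclonal WT, while the sorbitol-making Akr1b3 differed from WT5 by -0.13 to 0.25 in the 5 subclones. The values of subclones other than 3 in this paragraph were chosen after they had been seen.

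The genes with the pattern most like that of Nfat5 and of Hspa1a over the 7 group means of log2(TPM) were sought among 11872 genes. For Nfat5, whose group means span 0.53, these were mt-Nd5, a mitochondrially encoded subunit of complex I, Prob1 and Rc3h2, with Pearson r of 0.98, 0.98 and 0.97, and 31 genes had an r above 0.9. Group means of mt-Nd5 ran from 967.1 TPM (WT5) to 2179 TPM (subclone 5). For Hspa1a, whose group means span 2.62, they were Wfdc2, a secreted epithelial protein, Map2k3os, an antisense transcript of Map2k3, and Ipmk, an inositol phosphate kinase, with r of 0.99, 0.98 and 0.97, and 235 genes had an r above 0.9. Group means of Wfdc2 ran from 307.8 TPM in polyclonal WT to 527.7 TPM in WT5. These correlations describe 7 points that come from the same libraries and the same pair of tables, and no test was made of them.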

How the data were processed

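RNA sequencing of mIMCD-3 cells gave 28 libraries. The authors aligned reads with STAR 2.7.3a to GRCm38 with Ensembl release 81 annotation and quantified genes with RSEM 1.3.1, and the deposited values are TPM with 2 decimals, 1 table for polyclonal WT and WT5 and 1 for the subclones. Groups came from the sample labels, with 4 libraries each. Counts were not used here, so the depth of the libraries is unknown. Whether replicates were separate cultures is described in differing ways, so p-values measure only the spread between these libraries, which may be technical. The 10 genes, the 6 wider lists and the markers were chosen with earlier results of these data known.

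Identifiers were matched to GENCODE symbols for 45143 of 45706. Genes above 0 in all compared libraries were tested with limma 3.58.1 in R 4.3.3, on log2(TPM) centred on the library median (2-fold rule) and on its z-score within a library (the study's rule), without a pseudocount, at an adjusted p of 0.01. For each subclone against WT5, genes above 0 in all 24 libraries were fitted on the 8 libraries compared, and the 5 subclones with each other by an F test and 10 pairwise contrasts over 20 libraries. The sum of Hspa1a and Hspa1b was tested by an exact permutation test. The procedure was checked on simulated data. Named genes were all 10 genes and, of the wider lists, those past the study's rule or, where more than 6 passed either rule, the 6 with the largest difference under the 2-fold rule, and the 3 genes most correlated with Nfat5 and with the gene of widest range. Sequences were read from GRCm38 and RefSeq (GRCm38.p6) with Biopython 1.88, and shared stretches have 50 bases. Alternatives were Welch's test, pseudocounts of 0.1 and 1, a mean TPM of at least 1, genes above 0 in any library, uncentred values, an adjusted p of 0.05, no requirement on size, a replicate block, 1 fit of all groups and leaving out each library. A trend on transcript length and the loss of subclone 3 replicate 2 with subclone 5 replicate 1 were added after seeing the data. The TonE motif was searched by its consensus on both strands.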

Additional observations from a re-analysis of the deposited data

Results flagged for a closer look

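In 4 of 70 groups of 4 libraries, 1 library lay apart from the other 3 by a gap that exceeds Dixon's 95% critical value, as a share of the group's range, and chance flags about 1 group in 20. WT5 replicate 3 had 3.94 TPM of Slc5a3. WT5 replicate 1 had 30.91 TPM of Hspa4l. Subclone 5 replicate 2 had 222.8 TPM of Akr1b3. Subclone 1 replicate 4 had 4.78 TPM of Hspa1a. Hspa1a also differed among the subclones, with a range of their means of 1.47 on the log2 scale (limma F test, adjusted p 7.76e-08), and the cause was not tested.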

How the results depend on the processing

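Between WT5 and polyclonal WT the 2 genes past the 2-fold rule became 5 when genes above 0 in any library were kept with a pseudocount of 0.1, 5 without the requirement on size and 1 with a trend on transcript length taken out. By the study's rule 0 became 2 on log2(TPM) as deposited, where the z-score is lost and the size asked for drops from 8.56-fold to 2-fold as well, and 5 without the requirement on size. Over the 5 subclones against WT5 the 1 call of the 2-fold rule became 0 by Welch's test and 19 without the requirement on size, and the 0 calls of the study's rule became 1 on log2(TPM) as deposited, with the same double change, and 17 without it. Among subclones the 1 gene became 4 without it. Leaving out single libraries changed none of these 5 counts. The sum of Hspa1a and Hspa1b ran from 0.1691 to 0.2942 for WT5 against polyclonal WT and from 0.05257 to 0.1007 for subclone 4 against WT5. Its adjusted p was 0.0343 by the exact permutation test without polyclonal WT replicate 2 in the former and without subclone 4 replicate 3 in the latter.

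Some small differences changed sign. With genes above 0 in any library, WT5 minus polyclonal WT was 0.4498 for Nfat5, 0.1767 for Slc5a3 and 0.7847 for Pnpla6, subclone 1 minus WT5 was -0.01656 for Slc5a3, and subclone 4 minus WT5 was -0.1106 for Slc6a6 and -0.03762 for Hspa1b. As deposited, Pnpla6 was 0.1544 in WT5 minus polyclonal WT, and the difference from WT5 was -0.02774 for Slc5a3 in subclone 1, -0.02728 for Akr1b3 in subclone 2 and -0.07116 for Slc6a6 in subclone 4. With the length trend removed, Hspa4l was -0.1964 in WT5 minus polyclonal WT, Slc5a3 was -0.04492 and -0.07908 in subclones 1 and 2, and Akr1b3 was -0.0006475 in subclone 2. When single libraries were left out, Hspa4l ran from -0.01509 to 0.03631 in WT5 minus polyclonal WT, and against WT5 Slc5a3 from -0.03626 to 0.08269 in subclone 1, Akr1b3 from -0.01711 to 0.05593 in subclone 2 and from -0.1257 to 0.06287 in subclone 3, Pnpla6 from -0.09111 to 0.05802 in subclone 3, and Slc6a6 from -0.002297 to 0.04407 in subclone 4. Pnpla6 was 0.05793 in subclone 3 without subclone 3 replicate 2 and subclone 5 replicate 1. The cause of these changes was not tested.

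Same-numbered libraries had correlations of their deviations from -0.0514 to 0.0812 between WT5 and the other groups (0 of 24 over 0.1) and from -0.328 to 0.153 between subclones (6 of 40 over 0.1), so replicate numbers were not taken as pairs. With the replicate block 2 genes passed the 2-fold rule between WT5 and polyclonal WT, 0 the study's rule, and 1 gene differed among subclones. Over all genes the block gave 3079 calls against 3190 between WT5 and polyclonal WT, and 253 against 433 in subclone 1 and 283 against 550 in subclone 3. TPM carries no depth, so low values such as those of Hspa1a and Slc5a3 have an unknown counting error.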

Other observations

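Ccl2 fell outside the subclone tests because 1 library of subclone 2 was at 0. It had 0.065 ± 0.049 TPM in that subclone, against 12.8 ± 2.22 TPM in WT5 and means of 18.5 to 28.1 TPM in the other 4 subclones. Hspb8, a small heat shock protein gene, ran from 7.28 ± 0.28 TPM in subclone 2 to 26.0 ± 2.07 TPM in subclone 5, a range of 1.89 on the log2 scale (limma F test, adjusted p 1.43e-08). Both were picked after their values had been seen.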
